A study of Mus musculus with 6 samples.

Results

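The immediate early factors of the AP-1 and Egr families are described here in NIH3T3, a mouse fibroblast cell line derived from embryos. The 10 genes were taken by symbol, namely Fos, Fosb, Fosl1, Fosl2, Jun, Junb, Jund, Egr1, Egr2 and Ier2. All 10 were found among the 24938 genes listed in each file. RNA had been sequenced from 3 libraries of cells that overexpress F-CircAE, which is a circular RNA linked to the AML1-ETO fusion of human leukaemia, and from 3 control libraries of wild type cells. The labels name no time point or treatment. They call the controls wild type and name no empty vector, although the control titles start with V and the F-CircAE titles with C, letters that are not explained. Without a stated vector control, effects of the overexpression procedure and of the circular RNA cannot be told apart. Whether replicates were grown as separate cultures is not stated, and every p-value rests on library-to-library spread, which may be technical. In bulk RNA, fewer cells that express a gene and less of its RNA per cell cannot be told apart. Levels of F-CircAE are not analysed here.

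AP-1 is a dimer of basic leucine zipper proteins. Jun proteins pair with each other or with Fos proteins, whereas Fos proteins bind DNA only with a partner such as Jun. Egr proteins are zinc finger factors that bind GC-rich sites. In fibroblasts many of these genes are switched on within minutes of serum or growth factor addition, through ERK, ternary complex factors and serum response factor (SRF), and their mRNAs decay quickly. NIH3T3 cells are a classic system for this response.

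No factor passed the test between F-CircAE and control cells, and neither did any other of the 12222 tested genes. The groups overlapped in every one of the 10 factors, whereas they did not overlap in 11.5% of tested genes. Levels of the 10 factors instead differed between libraries of the same group, most in Fos, Fosb, Egr1 and Egr2. F-CircAE replicate 1 was highest in Fos, Fosb, Fosl1 and Jun and lowest in Junb and Ier2. Control replicate 3 was lowest in Fos, Egr1 and Egr2. Over all tested genes, F-CircAE replicate 1 was highest in 26.2% and lowest in 25.2%, and control replicate 3 was lowest in 19.2%. Fosl2 and Jund were nearly level throughout.

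Reads counted in the listed genes came to 16969915 to 21843880 per library, as recovered from the steps of the deposited values. The total sequenced per library is not known from these. All 8 fibroblast markers were measured in every library, with summed levels of 2112 to 2547 FPKM in F-CircAE libraries and 2298 to 2619 FPKM in controls. Of 3 epithelial markers listed, Cdh1 was highest at 2.82 FPKM or less, and Krt18 was listed at 0 in all libraries except control replicate 1. Of the 4 haematopoietic genes Ptprc and Adgre1 were at 0.166 FPKM or less. Cd68 stood at 4.56 to 6.34 FPKM in F-CircAE libraries and 4.32 to 5.96 FPKM in controls. Lyz2 stood at 17.7 to 25.5 FPKM in F-CircAE libraries and 22.6 to 25.002 FPKM in controls. The endothelial markers Pecam1, Cdh5 and Tek summed to 0.78 to 1.09 FPKM in F-CircAE libraries and 0.64 to 1.14 FPKM in controls. Control replicates 1 and 2 nearly matched, with a mean chi-square of 1.45 per gene, against 1 from counting error alone and 5.01 to 24.6 for the other 14 pairs of libraries. In the 10 factors these controls differed by 0.81% to 4.14%. Their origin is not stated, and if both come from 1 culture the control SDs understate the spread.

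RefSeq promoter windows, 250 bases before to 50 after an annotated start (GRCm38.p6), were matched for 7 of the 10 factors. Windows are shown for the 5 of these 7 genes with the widest spread between libraries of a group. Egr2 has 5 windows, and window 3 is given because it holds several motifs, as do windows 4 and 5, which overlap it. Window 2 of Egr2 held a CArG box alone and window 1 none of the motifs searched. Capitals mark matches on either strand to TGACG, the core of the cAMP response element, to TATAAA, the TATA box, to TGACATCA, the variant AP-1 site known from the Jun promoter, to GCGNGGGCG, the Egr core site, and to the CArG box, the site bound by SRF.
Fos, chr12:85473640-85473939, plus strand: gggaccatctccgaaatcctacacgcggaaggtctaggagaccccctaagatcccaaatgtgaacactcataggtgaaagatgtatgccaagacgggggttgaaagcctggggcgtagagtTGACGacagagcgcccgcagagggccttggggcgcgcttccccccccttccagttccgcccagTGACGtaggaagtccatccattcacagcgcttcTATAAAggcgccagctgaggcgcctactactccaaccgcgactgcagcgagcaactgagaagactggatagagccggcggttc
Fosb, chr7:19309996-19310295, minus strand: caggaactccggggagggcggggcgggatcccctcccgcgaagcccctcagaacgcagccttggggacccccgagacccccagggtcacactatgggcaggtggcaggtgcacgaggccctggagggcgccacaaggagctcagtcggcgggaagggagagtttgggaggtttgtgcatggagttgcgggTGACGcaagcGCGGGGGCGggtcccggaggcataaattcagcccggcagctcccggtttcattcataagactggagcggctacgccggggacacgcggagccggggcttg
Jun, chr4:95052173-95052472, minus strand: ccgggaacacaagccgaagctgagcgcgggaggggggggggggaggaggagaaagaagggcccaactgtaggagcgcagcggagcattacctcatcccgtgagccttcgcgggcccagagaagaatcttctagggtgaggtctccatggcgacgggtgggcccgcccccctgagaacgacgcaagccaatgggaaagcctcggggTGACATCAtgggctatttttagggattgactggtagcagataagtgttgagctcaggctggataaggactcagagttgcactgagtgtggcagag
Junb, chr8:84978699-84978998, minus strand: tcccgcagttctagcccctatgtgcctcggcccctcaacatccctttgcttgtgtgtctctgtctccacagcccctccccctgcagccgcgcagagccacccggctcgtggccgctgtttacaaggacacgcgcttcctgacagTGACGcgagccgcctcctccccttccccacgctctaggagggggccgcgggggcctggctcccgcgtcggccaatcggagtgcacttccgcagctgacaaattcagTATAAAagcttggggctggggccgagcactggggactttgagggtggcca
Egr2, chr10:67537619-67537918, plus strand: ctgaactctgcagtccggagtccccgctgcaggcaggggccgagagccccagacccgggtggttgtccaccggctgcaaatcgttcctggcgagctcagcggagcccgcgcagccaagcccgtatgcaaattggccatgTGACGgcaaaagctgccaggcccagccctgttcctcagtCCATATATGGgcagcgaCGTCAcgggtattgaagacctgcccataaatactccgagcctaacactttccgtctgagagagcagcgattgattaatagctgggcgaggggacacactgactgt

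With the start counted as 0, the Fos window held TGACG at -129 to -125 and at -66 to -62 and a TATA box at -33 to -28. Fosb held TGACG at -60 to -56 and an Egr core site at -50 to -42. Jun held TGACATCA at -45 to -38, and Junb held TGACG at -106 to -102 and TATAAA from its RefSeq start itself. That RefSeq start of Junb, at 84978748, lies upstream of the GENCODE M21 start of Junb, at 84978718. Positions were not counted from the latter. The Egr2 window held a CArG box at -72 to -63 with TGACG on either side, at -111 to -107 and, on the other strand, at -55 to -51. The Fosl2 window held an Egr core site at -79 to -71, and the Jund window held none of the motifs searched. The Jund window ends at 70697788, before the GENCODE M21 start of Jund at 70698949, so it does not cover that start. Of 32851 windows of the same length, 20.8% held TGACG, 13.6% TATAAA, 3.62% TGACATCA, 5.55% GCGNGGGCG and 1.63% a CArG box. None of the 11 windows of these genes held TGANTCA, the AP-1 site, or TGACGTCA, the full cAMP response element, which stood in 7.81% and 1.79% of all windows. A match or its lack describes the letters of these windows only.

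In the Fos family, Fos and Fosb varied most. Fos (ENSMUSG00000021250, chromosome 12, 85473890 to 85477273, mm10) encodes the founding Fos protein. It had 11.4, 3.62 and 1.84 FPKM in F-CircAE replicates 1, 2 and 3, against 5.90, 5.73 and 1.78 FPKM in control replicates 1, 2 and 3. F-CircAE replicate 1 stood above every other library, replicate 3 of each group was low, and the groups overlapped. Behind these values lay 454, 183 and 81 reads in the F-CircAE libraries and 284, 288 and 80 reads in the controls. The exact 95% Poisson interval was 413 to 498 reads for F-CircAE replicate 1 and 63.4 to 99.6 reads for control replicate 3, which covers counting error only. Fos averaged 5.62 ± 5.08 FPKM in F-CircAE cells and 4.47 ± 2.33 FPKM in control cells (SD, n = 3 each). On the log2(FPKM + 1) scale, on which all fold changes here are given and which understates changes of low genes, the difference was 0.11 with a 95% interval of -1.29 to 1.51 (limma adjusted p = 0.977).

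Fosb (ENSMUSG00000003545, chromosome 7, 19302696 to 19310051) encodes a Fos relative that also exists as a truncated splice form, which a gene-level value does not separate. It had 6.10, 1.68 and 1.27 FPKM in the F-CircAE libraries, against 2.40, 2.51 and 1.32 FPKM in the controls. As with Fos, F-CircAE replicate 1 was highest and replicate 3 of both groups was low. For Fosb the estimated log2 fold change was 0.21 (95% interval -0.80 to 1.23, limma adjusted p = 0.927). Fosb was the factor nearest to Fos in its pattern over the 6 libraries, with a root-mean-square difference of 0.29 between the log2 profiles, each centred on its own mean.

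Fosl1 (ENSMUSG00000024912, chromosome 19, 5447547 to 5455946) encodes Fra-1, which lacks the strong activation domain of Fos. It had 56.1, 27.8 and 28.9 FPKM in the F-CircAE libraries, against 38.7, 37.3 and 38.2 FPKM in the controls. The controls lay within 1.04-fold of each other, whereas F-CircAE replicate 1 lay above them and F-CircAE replicates 2 and 3 below. For Fosl1 the estimated log2 fold change was -0.09 (95% interval -0.69 to 0.51, limma adjusted p = 0.946). It became -0.41 without F-CircAE replicate 1, with an interval of -0.54 to -0.28, and this missed the threshold (limma adjusted p = 0.438). In GENCODE M21 1163 exon bases of Fosl1 overlap Ccdc85b on the other strand. The deposited values fit a Fosl1 length of 1707 bases, against 2033 exon bases in M21, so the overlap in the gene model behind its FPKM is not known. Ccdc85b had 115, 80.7 and 79.6 FPKM in the F-CircAE libraries and 87.2, 88.0 and 75.4 FPKM in the controls, so it too was highest in F-CircAE replicate 1. Use of strand is not stated, and the reads of the overlapping exons cannot be told apart without it.

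Fosl2 (ENSMUSG00000029135, chromosome 5, 32135801 to 32157842) encodes Fra-2 and was the steadiest factor. It had 16.5, 15.1 and 16.3 FPKM in the F-CircAE libraries, against 16.3, 16.5 and 15.5 FPKM in the controls. All 6 libraries lay within 1.09-fold. For Fosl2 the estimated log2 fold change was -0.01 (95% interval -0.15 to 0.13, limma adjusted p = 0.977). Fosl1 made up most of the family per unit length, with 57.6% to 62.3% of summed Fos family FPKM in F-CircAE libraries and 60.1% to 67.3% in controls. Fos itself held 12.7%, 7.49% and 3.82% in the F-CircAE libraries and 9.33%, 9.23% and 3.13% in the controls. The summed level was 90.0, 48.3 and 48.3 FPKM in the F-CircAE libraries and 63.2, 62.1 and 56.8 FPKM in the controls. The controls thus lay between the highest and the lower F-CircAE libraries.

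**Figure D1:**
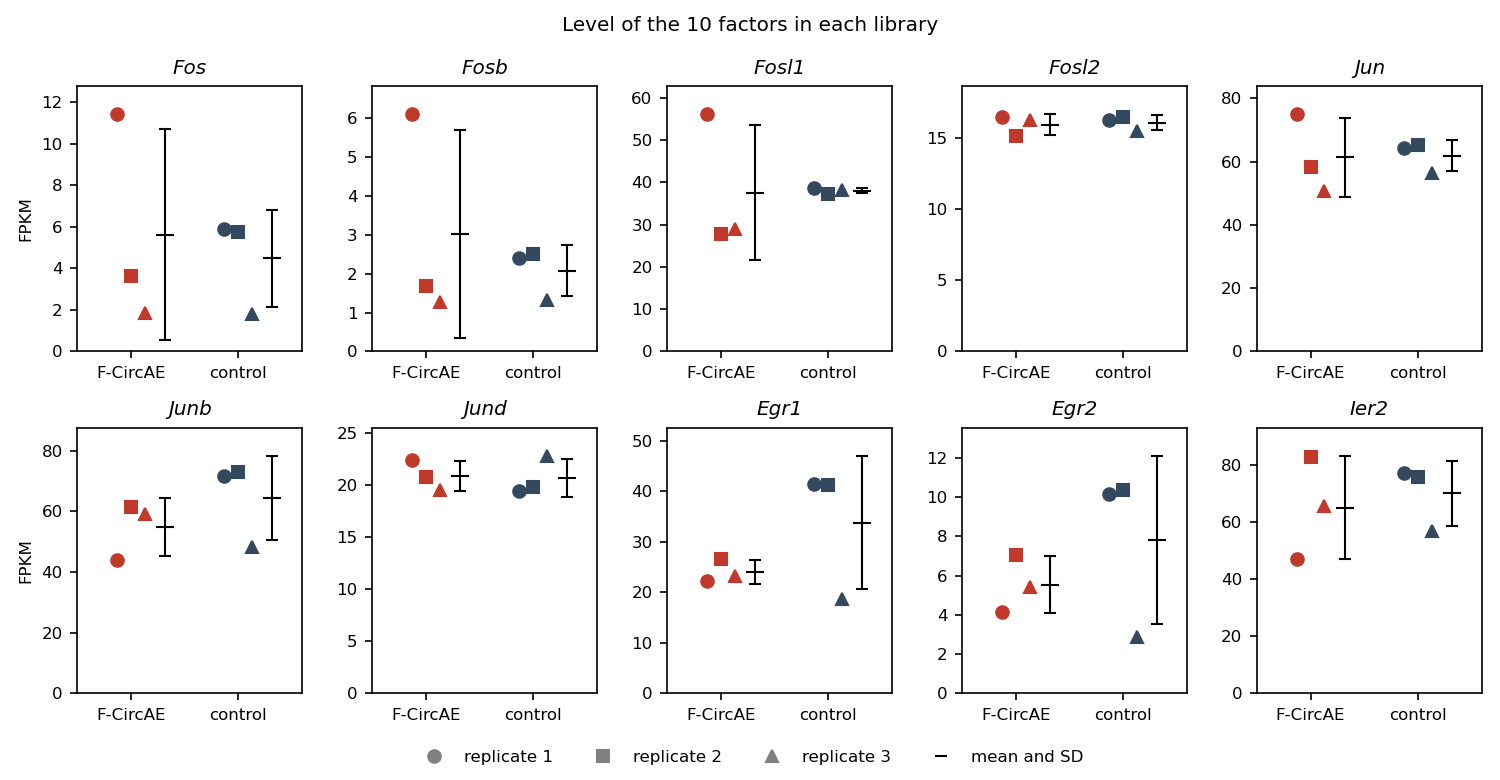
FPKM of the 10 factors (vertical axes, each from 0) in F-CircAE and control libraries, with one point per library shaped by replicate number and a bar for mean and SD (n = 3). The groups overlap in every panel, and F-CircAE replicate 1 is highest in Fos (11.4 FPKM), Fosb (6.10 FPKM), Fosl1 (56.1 FPKM) and Jun (74.95 FPKM).

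The Jun family was expressed at higher levels than the Fos family. Jun (ENSMUSG00000052684, chromosome 4, 95049034 to 95052222), a gene of 1 exon, encodes the main activating AP-1 subunit. It had 74.95, 58.3 and 50.8 FPKM in the F-CircAE libraries, against 64.2, 65.3 and 56.3 FPKM in the controls. The highest and the lowest library were both F-CircAE libraries. For Jun the estimated log2 fold change was -0.03 (95% interval -0.37 to 0.31, limma adjusted p = 0.974). Its antisense neighbour Junos shares 232 exon bases with it and had 4.75 to 5.55 FPKM in F-CircAE libraries and 4.14 to 7.47 FPKM in controls.

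Junb (ENSMUSG00000052837, chromosome 8, 84974484 to 84978718) encodes a Jun protein that activates more weakly at single AP-1 sites and can oppose Jun. It had 44.0, 61.5 and 59.1 FPKM in the F-CircAE libraries, against 71.6, 72.9 and 48.4 FPKM in the controls. Control replicates 1 and 2 were highest, and F-CircAE replicate 1 and control replicate 3 were lowest. The means were 54.9 ± 9.48 FPKM in F-CircAE cells and 64.3 ± 13.8 FPKM in control cells (SD, n = 3 each). For Junb the estimated log2 fold change was -0.22 (95% interval -0.67 to 0.24, limma adjusted p = 0.850). Without control replicate 3 it was -0.41 and without F-CircAE replicate 1 it was -0.07. In M21 exons of Prdx2 on the other strand overlap 173 bases of Junb, and Prdx2 lay at 19.3 to 21.6 FPKM in F-CircAE libraries and 18.4 to 20.6 FPKM in controls. The deposited values fit a Junb length of 1840 bases, against 2301 exon bases in M21. The overlap in the gene model behind the Junb FPKM is thus not known.

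Jund (ENSMUSG00000071076, chromosome 8, 70698949 to 70700616) encodes the Jun protein that resting cells express constitutively. It had 22.4, 20.7 and 19.6 FPKM in the F-CircAE libraries, against 19.4, 19.8 and 22.8 FPKM in the controls. The 6 libraries lay within 1.17-fold, and for Jund the estimated log2 fold change was 0.02 (95% interval -0.18 to 0.21, limma adjusted p = 0.973). The steps of the deposited values fit a Jund length of 2878 bases, against 1668 exon bases in M21, so the gene model behind its FPKM appears to be longer. The antisense gene Gm11175, which overlaps 877 exon bases of Jund, is not listed in the files. Summed Jun family FPKM was 141, 140.4 and 129 in the F-CircAE libraries and 155, 158 and 127 in the controls. Jun held 53.0% of this sum in F-CircAE replicate 1 and 39.2% to 44.2% in the other 5 libraries, whereas Junb held 31.1% in F-CircAE replicate 1 and 38.0% to 46.1% elsewhere. The order of Jun and Junb therefore changed between libraries, with Jun higher in 2 of 6.

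**Figure D2:**
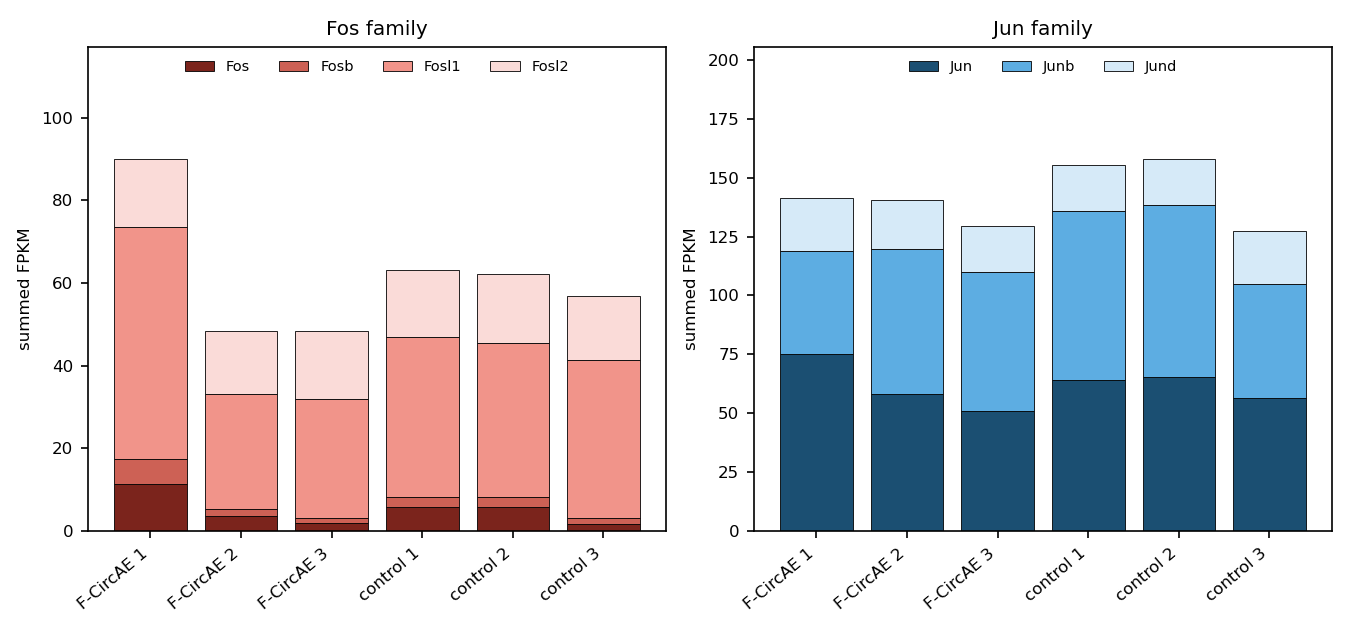
Summed FPKM (vertical axes, from 0) of the Fos family and the Jun family in each library, split by gene. Fosl1 is the widest band of the Fos family in all 6 libraries, and the Fos family sum is highest in F-CircAE replicate 1 (90.0 FPKM).

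The Egr genes had the lowest mean ratios among the factors. Egr1 (ENSMUSG00000038418, chromosome 18, 34859823 to 34864984) encodes a zinc finger activator that growth factors induce within minutes. It had 22.3, 26.6 and 23.2 FPKM in the F-CircAE libraries, against 41.6, 41.2 and 18.7 FPKM in the controls. All 3 F-CircAE libraries lay below control replicates 1 and 2 and above control replicate 3. The means were 24.0 ± 2.28 FPKM in F-CircAE cells and 33.8 ± 13.1 FPKM in control cells (SD, n = 3 each), a ratio of 0.71. For Egr1 the estimated log2 fold change was -0.40 (95% interval -1.09 to 0.30, limma adjusted p = 0.843). It was -0.76 without control replicate 3 (limma adjusted p = 0.121) and -0.21 without control replicate 1 or without control replicate 2.

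Egr2 (ENSMUSG00000037868, chromosome 10, 67535475 to 67542188) encodes Krox20, which is also needed for hindbrain patterning and myelination. It had 4.17, 7.03 and 5.42 FPKM in the F-CircAE libraries, against 10.2, 10.4 and 2.87 FPKM in the controls. The pattern was that of Egr1, its nearest factor, with a root-mean-square difference of 0.19. The means were 5.54 ± 1.43 FPKM in F-CircAE cells and 7.80 ± 4.27 FPKM in control cells (SD, n = 3 each). For Egr2 the estimated log2 fold change was -0.29 (95% interval -1.30 to 0.71, limma adjusted p = 0.897). It was -0.81 without control replicate 3 (limma adjusted p = 0.211), and -0.04 and -0.03 without control replicates 1 and 2 in turn, so its size turned on which controls were used. Some fibroblast markers also varied between libraries. Over the 8 markers the median centred log2 level was -0.19, 0.04 and 0.04 in F-CircAE replicates 1, 2 and 3 and 0.20, 0.20 and -0.17 in control replicates 1, 2 and 3. Of the 8, 5 were highest in control replicate 1 or 2 and 2 were lowest in control replicate 3, whereas Vim and S100a4 were lowest in control replicate 2. Their part in the Egr values was not tested.

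Ier2 (ENSMUSG00000053560, chromosome 8, 84661331 to 84662852) encodes a small nuclear protein of the immediate early response and is a gene of 1 exon. It had 47.1, 82.9 and 65.5 FPKM in the F-CircAE libraries, against 77.4, 75.9 and 57.1 FPKM in the controls. Both the highest and the lowest library were F-CircAE libraries. For Ier2 the estimated log2 fold change was -0.13 (95% interval -0.64 to 0.38, limma adjusted p = 0.910). Junb was its nearest factor, with a root-mean-square difference of 0.12.

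Ordered by mean FPKM over the 6 libraries, Ier2 (67.6), Jun (61.6) and Junb (59.6) came first, followed by Fosl1 (37.8), Egr1 (28.9), Jund (20.8), Fosl2 (16.0), Egr2 (6.67), Fos (5.04) and Fosb (2.55). The ranges of neighbours overlapped from Ier2 down to Jund and from Egr2 down to Fosb. Jund lay above Fosl2 and Fosl2 above Egr2 in all 6 libraries without overlap. Fos, although its range overlapped that of Fosb, was the higher of these 2 genes in each of the 6 libraries.

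The factors did not vary as a block. Fos and Fosb shared one pattern, Egr1 and Egr2 another, and Junb and Ier2 one that lay closer to the Egr genes than to Fos. F-CircAE replicate 1 separated them, at 1.24 above the Fos mean and 0.30 below the Egr1 mean on the log2(FPKM + 1) scale. Fos FPKM amounted to 51.1%, 13.6% and 7.94% of Egr1 FPKM in F-CircAE replicates 1, 2 and 3, and to 14.2%, 13.9% and 9.48% in control replicates 1, 2 and 3. F-CircAE replicate 1 also had the fewest recovered reads in the listed genes, 16969915, and the part of depth in this was not tested.

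**Figure D3:**
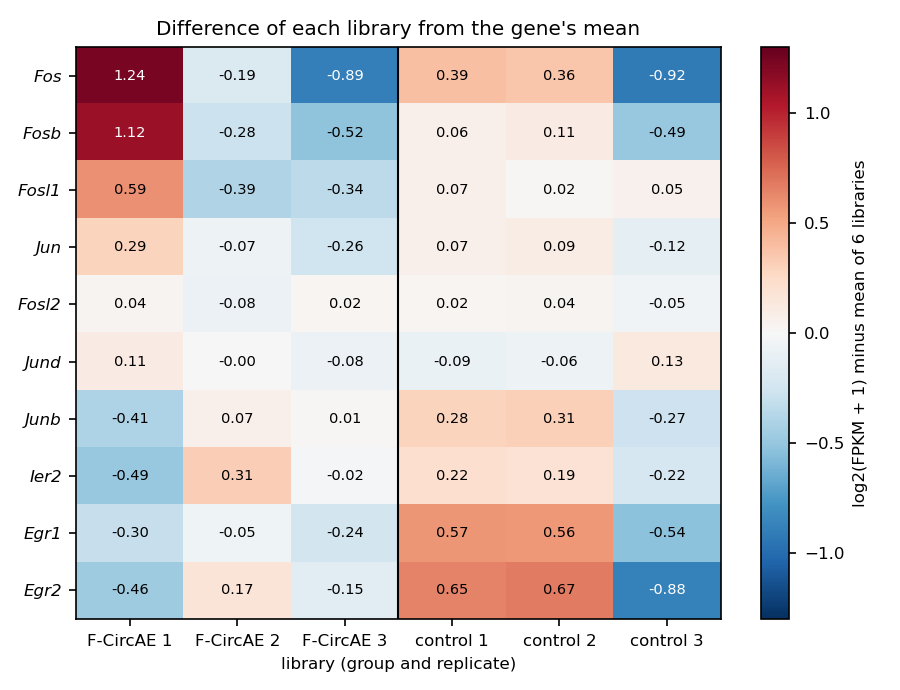
Difference of log2(FPKM + 1) in each library (columns) from the gene's mean over the 6 libraries (rows), red above and blue below. Fos stands at 1.24 in F-CircAE replicate 1, where Ier2 stands at -0.49, and control replicate 3 is at -0.92 for Fos and -0.88 for Egr2.

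By this spread the factors lay at the upper end of the measured transcriptome. The SD of log2(FPKM + 1) within groups was 0.93 in Fos, 0.67 in Fosb, 0.67 in Egr2, 0.46 in Egr1, 0.39 in Fosl1, 0.33 in Ier2, 0.30 in Junb and 0.21 in Jun, against a median of 0.11 over all 12222 tested genes. Of all tested genes 99.8% had a smaller spread than Fos, 98.9% than Egr2 and 96.9% than Egr1. Jund, at 0.11, and Fosl2, at 0.05, lay below that median.

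**Figure D4:**
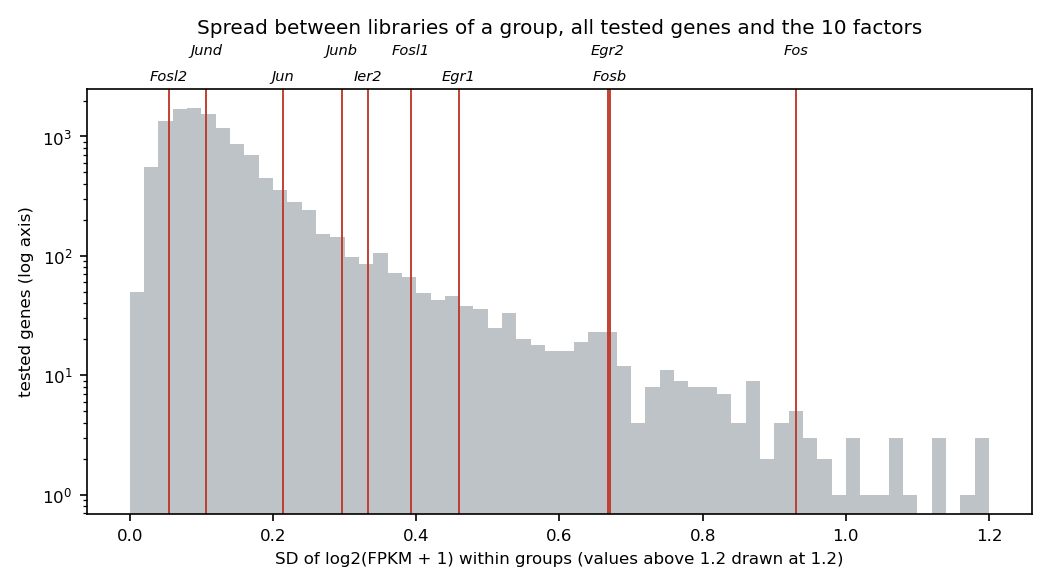
Histogram of the SD of log2(FPKM + 1) within groups over 12222 tested genes (horizontal axis, with the number of genes on a log axis), with lines at the 10 factors. Fos (0.93), Fosb and Egr2 (0.67 each) lie far right of the median of 0.11, and Fosl2 (0.05) lies left of it.

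In the comparison of F-CircAE with control cells 0 of the 10 factors passed at an adjusted p below 0.05 (limma, fitted over 12222 genes), where 0.0% of tested genes passed. At an unadjusted p below 0.05 there were also 0 factors, against 5.17% of tested genes (2.86% or 350 genes higher, 2.31% or 282 lower; scaled to total reads, 174 genes higher against 453 lower, and to the upper quartile, 217 against 384), and limma-voom on the recovered reads called 0. The groups did not overlap in 0 factors, against 11.5% of tested genes (6.81% higher and 4.69% lower). All 10 passed the filter on low values. Of their estimates 7 lay below 0 and 3 above, with a median of -0.06 beside 0.01 over all tested genes. The intervals were wide. In 4 factors, Fos, Fosb, Egr1 and Egr2, the 95% interval included a 2-fold difference of FPKM + 1 in at least one direction, and in 7 a 1.5-fold difference. Changes of those sizes could not be told from no change in these factors with 3 libraries a group. Only for Fosl2, Jun and Jund did the interval exclude 1.5-fold either way.

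The estimates turned on single libraries, although 0 factors passed without control replicate 3, where 0.0164% of tested genes passed, and 0 without F-CircAE replicate 1, where 0.00818% passed. Without F-CircAE replicate 1, Fos stood at -0.48 and Fosb at -0.29, and without control replicate 3 Fos stood at -0.32, all opposite in sign to the values with 6 libraries. Egr1 was below 0 under all 17 alternatives, from -0.76 to -0.10. These alternatives reuse the same libraries, and none left out both control replicates 1 and 2. Control replicate 3, at 18.7 FPKM of Egr1, lay below every F-CircAE library, at 22.3 to 26.6 FPKM. Array weights weigh each library by how closely it follows its group mean over all tested genes. They were 0.278, 4.638 and 0.593 in F-CircAE replicates 1, 2 and 3. In control replicates 1, 2 and 3, of which the first 2 nearly match, they were 2.155, 2.571 and 0.236. With these weights Egr1 passed at -0.60 on the log2 scale (limma adjusted p = 0.040). That is 1 of 10 factors, where 18.3% of tested genes passed under the same weights. With control replicates 1 and 2 averaged to 1 library and array weights added, Egr1 stood at -0.10 and no gene passed (limma adjusted p = 0.976 for Egr1).

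**Figure D5:**
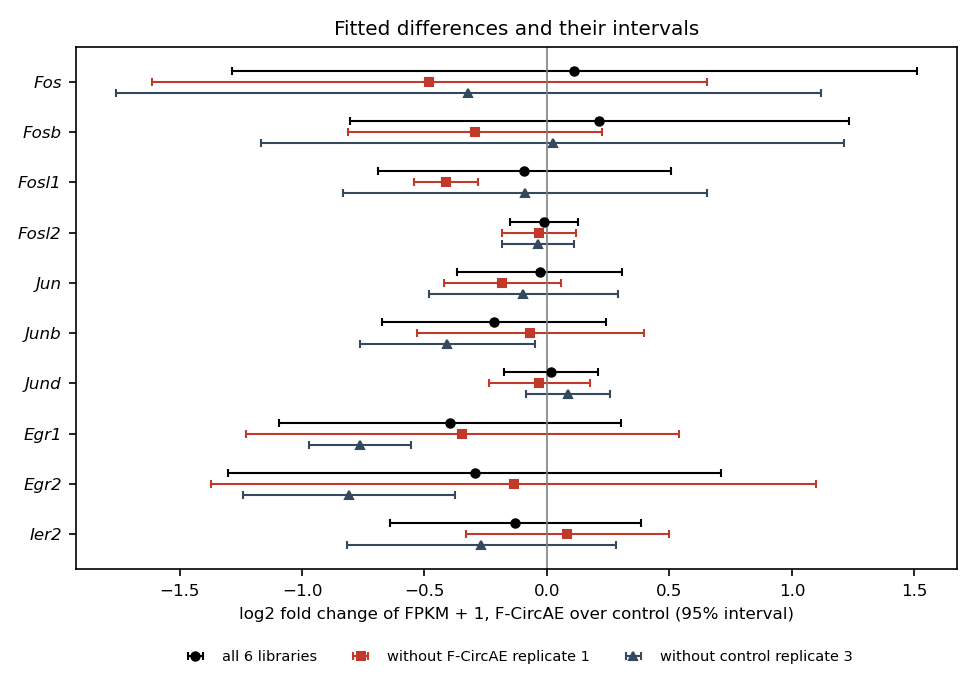
Log2 fold change of FPKM + 1, F-CircAE over control, with 95% intervals (limma), for all 6 libraries (black circles), without F-CircAE replicate 1 (red squares) and without control replicate 3 (blue triangles). Fos moves between 0.11, -0.48 and -0.32, whereas Fosl2 stays within 0.04 of 0 in all 3 fits.

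Genes that work with these factors were listed by role. Of 33 tested genes of a list of other immediate early genes, 0 passed, 27 had estimates below 0 (81.8%, against 46.8% of all tested genes) and the median was -0.12. The groups did not overlap in 1 of them (3.03%), Ccn2, a matricellular protein also known as CTGF, against 4.69% of tested genes that were lower without overlap. Ccn2 had 38.8, 39.8 and 39.97 FPKM in the F-CircAE libraries and 44.4, 44.8 and 45.9 FPKM in the controls (log2 fold change -0.18, limma adjusted p = 0.842). Zfp36l1, which destabilises AU-rich mRNAs, had 12.5 ± 0.82 FPKM in F-CircAE cells and 14.5 ± 1.48 FPKM in control cells (SD, n = 3 each; limma adjusted p = 0.842). Array weights gave control replicates 1 and 2 far more weight than control replicate 3. With them 11 of the 33 passed as lower (33.3%, against 7.28% of tested genes) and 0 as higher. None of the 33 passed with control replicates 1 and 2 averaged, whether array weights were added or not.

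The nearest relatives of Egr1 followed its pattern in part. Egr3, a further Egr factor, had 0.75, 1.25 and 0.76 FPKM in the F-CircAE libraries and 2.07, 2.08 and 0.74 FPKM in the controls, again high in control replicates 1 and 2 and low in control replicate 3 (limma adjusted p = 0.843). Nab1, a corepressor that binds Egr proteins, had 19.5, 20.7 and 20.005 FPKM in the F-CircAE libraries and 18.2, 18.6 and 15.3 FPKM in the controls, and the groups did not overlap (log2 fold change 0.20, limma adjusted p = 0.842), as in 6.81% of tested genes that were higher without overlap. Nab2, the second corepressor and itself an Egr target, had 4.28, 5.80 and 5.30 FPKM in the F-CircAE libraries and 5.82, 5.72 and 4.24 FPKM in the controls. Of 3 tested genes in this list 0 passed.

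Among AP-1 dimer partners 0 of 6 tested genes passed, with a median of -0.05. Atf7, a bZIP protein of the ATF2 group, had 11.3 ± 0.76 FPKM in F-CircAE cells and 12.2 ± 1.14 FPKM in control cells. Mafg, a small Maf protein, had 25.1 ± 1.31 FPKM in F-CircAE cells and 27.7 ± 4.58 FPKM in control cells (SD, n = 3 each). Of 22 tested upstream kinases and SRF factors 0 passed, the median was -0.03, and the groups did not overlap in 4 (18.2%), all lower, against 4.69% of tested genes. Elk4, a ternary complex factor that binds with SRF, had 7.94, 7.47 and 7.04 FPKM in the F-CircAE libraries and 8.49, 8.40 and 8.53 FPKM in the controls (log2 fold change -0.16, limma adjusted p = 0.842). Mapk8, which encodes the Jun kinase JNK1, had 5.26 ± 0.09 FPKM in F-CircAE cells and 5.73 ± 0.37 FPKM in control cells (SD, n = 3 each; log2 fold change -0.10). Mapk9 and Mrtfb, also among these 4, each had a log2 fold change of -0.07 and separated narrowly. The highest F-CircAE and lowest control values were 17.23 and 17.29 FPKM in Mapk9 and 6.46 and 6.52 FPKM in Mrtfb. Srf stood at 17.2, 14.1 and 13.7 FPKM in the F-CircAE libraries and 18.8, 19.6 and 13.9 FPKM in the controls, so control replicate 3 was again below the other controls. Nab2, Srf, Mapk9 and Mrtfb were named after their values were seen.

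Of 14 tested genes listed as targets of AP-1 or Egr factors 0 passed, with 8 estimates above 0, 6 below and a median of 0.06. Vegfa, the angiogenic growth factor, had 27.1, 30.9 and 31.8 FPKM in the F-CircAE libraries and 36.5, 36.0 and 46.9 FPKM in the controls (log2 fold change -0.39, limma adjusted p = 0.842). Timp1, an inhibitor of matrix metalloproteinases, had 74.8, 70.2 and 64.9 FPKM in the F-CircAE libraries and 59.0, 63.5 and 60.8 FPKM in the controls (log2 fold change 0.19, limma adjusted p = 0.842). In these 2 of the 14 the groups did not overlap, 1 higher and 1 lower, where 6.81% of tested genes were higher and 4.69% lower without overlap. In 9 of the 14 targets F-CircAE replicate 1 was the highest library (64.3%), as it was in 26.2% of all tested genes. It was highest in 6 of the 33 other immediate early genes and 4 of the 22 upstream kinases and SRF factors. Among AP-1 dimer partners it was highest in 1 of 6, and among Egr relatives and corepressors in 0 of 3. Control replicate 3 was lowest in 7 of the 14 targets, against 19.2% of all tested genes. In the same 4 other lists it was lowest in 9, 4, 1 and 3 genes. Any link of these tallies to the factors was not tested.

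Genes with a pattern like that of Fos, the factor with the largest range over the 6 libraries, were sought among all tested genes other than the 10 factors. The 3 nearest of these were the small RNA genes Snord91a, Gm25636 and Gm22728, which rest on at most 17 reads in a library. The next were Itgb7, an integrin beta chain, and Nid1, the basement membrane protein nidogen, with root-mean-square differences of 0.32 each over 6 libraries. Nid1 had 7.27, 3.40 and 2.64 FPKM in the F-CircAE libraries and 6.52, 6.34 and 2.61 FPKM in the controls. Itgb7 had 11.7, 5.66 and 4.86 FPKM in the F-CircAE libraries and 10.8, 8.57 and 4.02 FPKM in the controls. In both, as in Fos, F-CircAE replicate 1 was highest and control replicate 3 lowest. Among the factors Fosb, at 0.29, lay closer to Fos than Gm22728 (0.31), Itgb7 and Nid1, and less close than Snord91a (0.25) and Gm25636 (0.26).

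The 10 genes varied in structure. Their genomic spans in GENCODE M21 ran from 1522 bases in Ier2 to 22042 bases in Fosl2, with a median of 4698.5, and all 10 lay below the median of 24028 bases over 10309 tested genes with an annotated 3' untranslated region. Jun, Jund and Ier2 have 1 exon in every annotated transcript, as do 1.74% of these genes. The pentamer ATTTA, the core of AU-rich elements that speed mRNA decay, was counted in the 3' untranslated region of the transcript with the longest coding sequence. It occurred 4 times in Fos, 4 in Jun, 8 in Fosl2 and 0 times in Ier2. Per kilobase this is 4.91 in Fos, 4.12 in Junb and 3.24 in Jun, against a median of 1.27, and 8 of the 10 lay above that median. The longer form TATTTAT was present in 6 of the 10 and in 27.9% of the tested genes. Fosb had 0.47 pentamers per kilobase and 1 TATTTAT, whereas Egr2 had 2.5 per kilobase and 0 TATTTAT. Any link between these counts and the spread between libraries was not tested.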

How the data were processed

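RNA was measured in 6 NIH3T3 libraries. Per the labels' protocols, DNase I digestion of the RNA was followed by a NEBNext Ultra library kit and paired-end reading on an Illumina HiSeq. The values deposited by the authors are FPKM per gene, per the file headers. The build is mm10 per the submitters' processing notes. Aligner, counter, annotation and strand setting were not given in the sources used here. The 10 factors and the gene lists were chosen with earlier results of these data known.

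Symbols came from GENCODE M21 (24816 of 24938 IDs), with newer symbols for Ctgf, Cyr61, Mkl1 and Mkl2. All 12222 genes with more than 1 FPKM in at least 3 libraries entered 1 fit in limma 3.58.1 (R 4.3.3). It used log2 of FPKM plus a pseudocount of 1, a mean-variance trend, robust shrinkage and a group term, with p-values adjusted by Benjamini-Hochberg over these genes at a threshold of 0.05. The fit was tested on simulated data. Reads were recovered from the FPKM steps, to within 0.01 reads, with M21 exon lengths for 19832 genes and a searched length for 5106, among them Fosl1, Junb and Jund, whose whole reads are thus no independent check. Named genes are the 10 factors, the 2 with the smallest p in each list and the 5 nearest to Fos. Alternatives changed the pseudocount (0.1, 5), the filter, the scaling or the library weights, added a replicate block, left out each library, averaged control replicates 1 and 2, or ran limma-voom on recovered reads. Counting intervals ignore amplification, since reads are not independent molecules.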

Additional observations from a re-analysis of the deposited data

How the results depend on the processing

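Among the 17 alternatives, Egr1 with array weights was the single call among the 10 factors (1 factor, 2241 of all tested genes and 22 of 75 genes of the pathway lists, against 0 in each with equal weights). Leaving out a library gave 0 to 2 called genes in all (2 without control replicate 3 and 1 without F-CircAE replicate 1), 0 factors and 0 genes of the pathway lists. With the replicate number as a block 0 genes passed, and no call changed. The correlations of deviations between libraries of the same number were -0.10, 0.08 and 0.003, so the numbers are not taken as pairs, and not every library correlated best with its own number. At an unadjusted p below 0.05 limma gave 632 genes, 444 with the block and 1870 without control replicate 3.

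Signs turned as follows, with the cause not tested. Leaving out a library moved the log2 fold change of Fos between -0.48 and 0.58, Fosb between -0.29 and 0.53, Fosl1 between -0.41 and 0.080, Fosl2 between -0.037 and 0.024, Jun between -0.18 and 0.095, Jund between -0.031 and 0.086 and Ier2 between -0.32 and 0.084. With array weights Fos stood at -0.50, Fosb at -0.29 and Ier2 at 0.055. With control replicates 1 and 2 averaged Fosl2 stood at 0.0014, Jun at 0.0033 and Jund at -0.017. With array weights added to that averaging Fosb stood at -0.024, Junb at 0.019, Jund at -0.029, Egr2 at 0.20 and Ier2 at 0.23. Jund stood at -0.0065 after rescaling to the upper quartile and at -0.015 after rescaling to total reads. Fosb was not tested with the filter at 5 FPKM. Fos rested on its fewest reads in replicate 3 of both groups, with 81 in F-CircAE and 80 in control, so its counting error relative to the count is largest there.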
